A study of Caenorhabditis elegans with 5 samples.

Results

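The genes described here are those of fatty acid elongation in C. elegans, the 9 numbered elongase genes elo-1 to elo-9 and let-767, which encodes a partner enzyme of the same reaction cycle. They were chosen by gene symbol, and all 10 were found among the 19176 features of the counts and passed the filter on low counts. RNA was sequenced from whole wild type N2 animals, in 2 libraries from L4 larvae, the last larval stage, and 3 libraries from adults on Day 6 of adulthood. All animals were grown at 20 °C on E. coli HT115 carrying L4440, the RNAi vector with no insert, on plates with 2 mM IPTG and carbenicillin. The Day 6 animals were in addition exposed from L4 to FUdR (25 µg/mL), which blocks DNA synthesis and so keeps progeny from growing up. Age and FUdR therefore differed together, and their effects cannot be told apart.

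Fatty acids longer than palmitate are made in the endoplasmic reticulum by a cycle of reactions that adds a pair of carbons at each turn. An elongase of the ELO family joins malonyl-CoA to the growing chain, and a ketoreductase, a dehydratase and an enoyl reductase then complete the turn. In C. elegans, elo-1 and elo-2 act on straight chains, among them the precursors of the polyunsaturated fatty acids, and elo-5 and elo-6 make the branched-chain fatty acids that the worm needs for growth and for its sphingolipids. The intestine is the main site of fat synthesis in this animal.

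Read counts per gene ranged from 9368922 to 29247719 in total per library. Levels are given as CPM, counts scaled to a common library size after adjustment by the TMM method of edgeR, and as RPKM, the same value per kilobase of exon, where genes are compared with each other. The TMM factor of L4 replicate 1 was 0.293, against 1.03 to 1.63 in the other libraries, and this library stood apart from L4 replicate 2 (across genes, Pearson's r between their log2 CPM was 0.80, against 0.96 to 0.97 among the Day 6 libraries). For that reason values are given for each L4 library, and the main results below are also given without L4 replicate 1 or replicate 2. All genes are then called more often, 26% higher and 24.1% lower without replicate 1, and 36.5% higher and 24.2% lower without replicate 2. Yolk protein genes, which mark adults, had a summed level of 1141 and 2700 CPM at L4 and of 69134 to 157723 CPM at Day 6, and thus went with the labels.

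Transcripts of fatty acid elongation were lower in Day 6 adults than in L4 larvae. The ketoreductase gene let-767 and 4 elo genes (elo-6, elo-2, elo-5 and elo-9) fell at an adjusted p under 0.05 (edgeR quasi-likelihood F, SE standing for standard error below, p adjusted over 12758 genes), and the other 5 did not pass. This is 5 of 10, against 12.5% of all tested genes that fell and 26.9% that passed in either direction. None rose, against 14.3% of all tested genes, and none was higher at an unadjusted p under 0.05 or with DESeq2, by which 9 of 10 fell, against 21.7%. With upper-quartile normalization 8 of 10 fell, against 16.1%. The count was 0 with library totals alone (1.37% of all tested genes) or with any 1 Day 6 library left out, and 1 or 0 with the replicate as a block, settings under which far fewer genes passed in all. All 10 had a negative log2 fold change, as had 48.6% of all tested genes, and their median was -2.66, against 0.08 over all tested genes. In CPM after TMM, every Day 6 library lay below both L4 libraries in 9 of the 10, against 23.4% of all tested genes. In none did every one lie above, against 35.4%. These counts depend on the scaling. With CPM from library totals alone, the groups overlapped for elo-3, elo-4, elo-5, elo-7, elo-8 and elo-9, and the share over all tested genes is not given here. In whole animals, fewer cells of a type and less RNA per cell cannot be told apart.

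**Figure D1:**
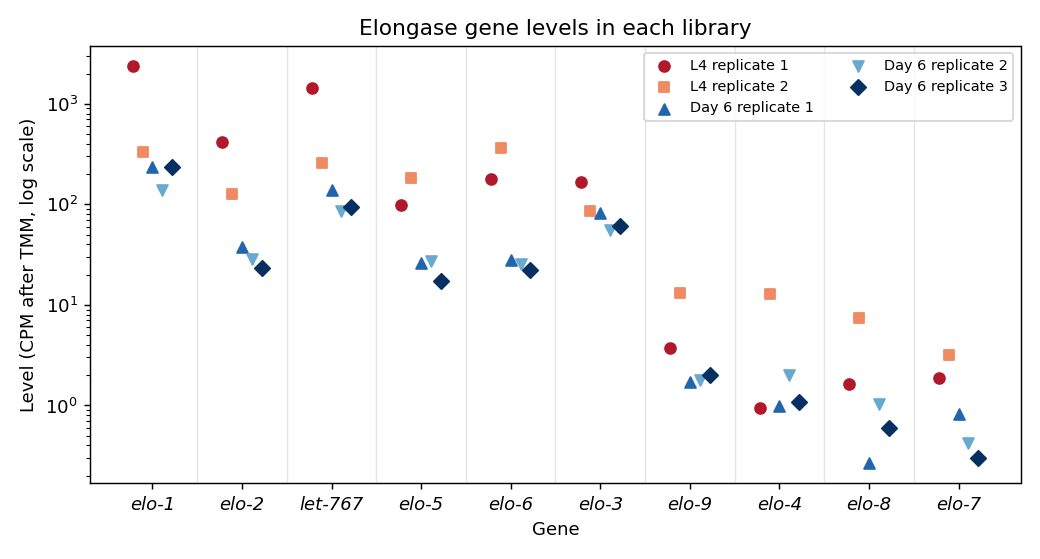
Level of each of the 10 genes in every library, as CPM after TMM on a log scale, with 1 point per library (red and orange, L4; blue, Day 6). The Day 6 points lie below both L4 points in every gene except elo-4, and L4 replicate 1 is the higher of the L4 libraries for elo-1, elo-2, elo-3 and let-767 and the lower for the other 6.

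Of the straight-chain elongases, elo-2 fell, and elo-1 was lower at Day 6 by an amount that depended on the L4 library. elo-1, whose enzyme lengthens polyunsaturated chains, lies on chromosome IV (9526366 to 9528336, WBcel235, plus strand). Its level was 2386 and 330.2 CPM in L4 replicates 1 and 2, and 236, 139 and 235.4 CPM in Day 6 replicates 1, 2 and 3. The groups did not overlap, but the L4 libraries differed from each other by 7.23-fold, more than the lower of them differed from Day 6. By library totals alone, elo-1 was at 700 and 533 CPM at L4 and at 226 to 295 CPM at Day 6. The fit gave a log2 fold change for elo-1 of -2.74 (SE 0.93, edgeR adjusted p = 0.0619). Without L4 replicate 1 this was -0.62 (adjusted p = 0.22). Without L4 replicate 2 it was -3.54 (adjusted p = 1.68e-05), with the spread of the lone L4 library taken from the Day 6 libraries.

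elo-2, whose enzyme lengthens palmitate, lies on chromosome IV too (17466062 to 17467408, minus strand). It was at 420 and 126 CPM in the L4 libraries and at 37.6, 28.9 and 23.3 CPM at Day 6. Each Day 6 library was thus far below the lower L4 library. The fitted change was 9.10-fold, a log2 fold change of -3.19 (SE 0.66, edgeR adjusted p = 0.0143). It was smaller, at -1.99, without L4 replicate 1 (adjusted p = 6.73e-04). The ratio of elo-2 to elo-1 RPKM within a library, which does not depend on the scaling between libraries, was 0.180 and 0.390 at L4 and 0.163, 0.213 and 0.101 at Day 6. The groups overlapped, and the mean log2 ratio differed by -0.80 (two-sided exact permutation test, p = 0.40, where the smallest possible p is 0.20).

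let-767 encodes a ketoreductase of the elongation cycle, needed for straight and branched chains alike, and its levels followed those of elo-1. It lies on chromosome III (6338508 to 6339969, minus strand). The levels were 1421 and 257 CPM at L4 and 138, 86.6 and 93.1 CPM at Day 6, with no overlap. It fell by 2.99 on the log2 scale (SE 0.83, edgeR adjusted p = 0.0354), and its change was -1.20 without L4 replicate 1 (adjusted p = 0.0207). With CPM from library totals alone, without TMM, the L4 libraries were close to each other for this gene, at 417 and 415 CPM, against 116 to 142 CPM at Day 6.

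The branched-chain elongases elo-5 and elo-6 were both lower at Day 6. Both lie on the minus strand of chromosome IV, elo-5 at 5374616 to 5377117 and elo-6 at 5386629 to 5388559. L4 replicates 1 and 2 had 180.4 and 366 CPM of elo-6, and the Day 6 libraries 28.0, 25.3 and 22.3 CPM. The Day 6 libraries were close together and below both L4 libraries. By library totals alone elo-6 was at 52.9 and 591 CPM at L4 and at 27.9 to 41.1 CPM at Day 6, so that L4 replicate 1 was nearer to Day 6 than to L4 replicate 2. With all libraries the fitted change of elo-6 was the largest of the 10 genes, 10.9-fold or -3.44 on the log2 scale (SE 0.56, edgeR adjusted p = 0.00693). It was -3.78 without L4 replicate 1 and -2.83 without L4 replicate 2 (adjusted p = 2.58e-05 and 4.43e-06), and in the latter case elo-2 (-3.80), let-767 (-3.74) and elo-1 (-3.54) had larger changes.

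elo-5, which is needed for the shorter and the longer branched chains, was at 98.2 and 185 CPM at L4 and at 25.96, 27.5 and 17.5 CPM at Day 6. It fell by 2.58 on the log2 scale (SE 0.52, edgeR adjusted p = 0.0134), and the log2 fold change was -2.88 and -2.04 without L4 replicates 1 and 2. By library totals alone, L4 replicate 1 had 28.8 CPM and lay among the Day 6 libraries (21.8 to 44.8), while L4 replicate 2 had 298. The exons of elo-5 share 162 bases with F41H10.3 on the opposite strand, and the strand setting of the counting is not given in the sources used here, so reads from both cannot be told apart there.

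Within each library, elo-6 exceeded elo-5 by 1.83 and 1.98 times in RPKM at L4, and was at 1.07, 0.914 and 1.27 times elo-5 at Day 6. The 2 branched-chain elongases were thus at about equal levels at Day 6, and the groups did not overlap. At L4 the mean log2 ratio was 0.93 ± 0.08 (SD, n = 2), and the Day 6 mean was 0.11 ± 0.24 (SD, n = 3). The difference of -0.82 had the smallest p that this design allows, which does not reach 0.05 (two-sided exact permutation test, p = 0.20). It ranged from -0.94 to -0.70 when each library was left out in turn.

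**Figure D2:**
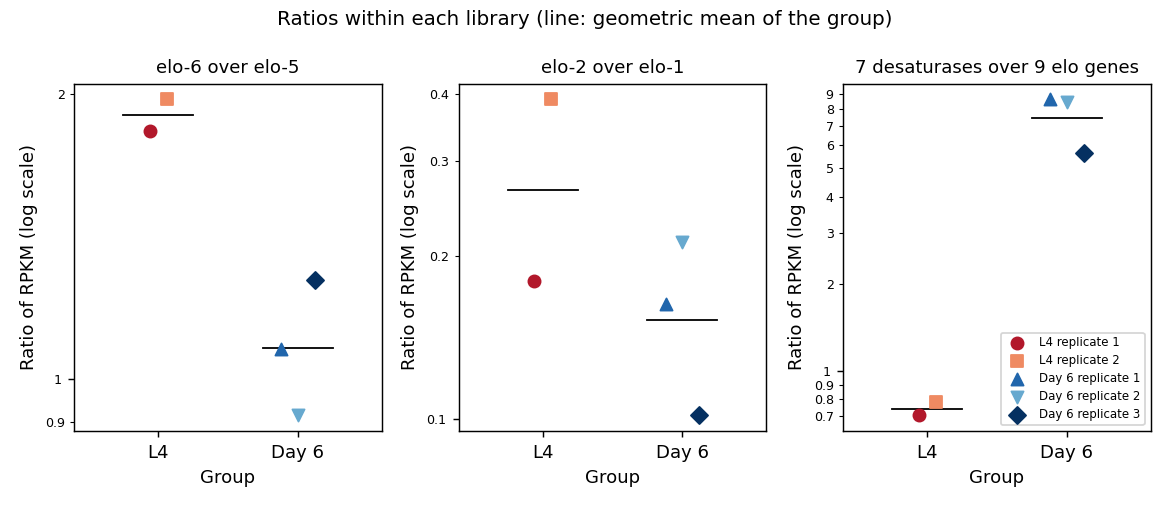
Ratios of RPKM within each library on log scales, for elo-6 over elo-5, elo-2 over elo-1, and the summed RPKM of the 7 desaturases over that of the 9 elo genes, with 1 point per library and a line at the geometric mean of each group. The elo-6 ratio lies at 1.83 and 1.98 at L4 and at 0.914 to 1.27 at Day 6, the elo-2 ratio overlaps between the groups, and the desaturase ratio lies below 1 in both L4 libraries and at 5.64 to 8.65 at Day 6.

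With all libraries, elo-3 had the smallest fitted difference between the groups. This gene (chromosome IV, 7237718 to 7240488, plus strand), a member of the ELO family by sequence, was at 167 and 85.0 CPM at L4 and at 82.1, 55.9 and 61.2 CPM at Day 6. Its highest Day 6 library nearly reached its lower L4 library. The log2 fold change was -0.92 (SE 0.52, edgeR adjusted p = 0.22), and with counts scaled to library totals the groups overlapped. It was -0.28 without L4 replicate 1 (adjusted p = 0.48) and -1.32 without L4 replicate 2 (adjusted p = 0.00392), where elo-4 and elo-9 differed less.

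The remaining ELO genes, elo-9, elo-8, elo-7 and elo-4, were weakly expressed at both ages, at no more than 13.6 RPKM in any library. elo-9, the only member on chromosome II (14959526 to 14964108, minus strand), had 16 and 197 counts in L4 replicates 1 and 2 and 52, 38 and 34 at Day 6. These correspond to 3.76 and 13.04 CPM at L4 and to 1.73, 1.79 and 2.02 CPM at Day 6. elo-9 fell by 2.20 (log2, SE 0.69, edgeR adjusted p = 0.0487), close to the threshold. Leaving out L4 replicate 2 gave -1.02 (adjusted p = 0.17).

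elo-8, on chromosome III (11230377 to 11232069, minus strand), had 7 and 111 counts at L4 and 8, 22 and 10 at Day 6. elo-7, on chromosome IV 1610 bases downstream of elo-1, had 8 and 48 counts at L4 and 25, 9 and 5 at Day 6. In both genes the L4 libraries were above Day 6 in CPM (1.64 and 7.35 against 0.266 to 1.04 for elo-8, and 1.88 and 3.18 against 0.298 to 0.830 for elo-7). Neither passed the test with all libraries (log2 fold changes of -2.86 and -2.27, adjusted p = 0.0550 and 0.0724, edgeR), and both passed without L4 replicate 1 (adjusted p = 0.00319 and 0.0272). Without L4 replicate 2 they were at -1.38 and -1.81 (adjusted p = 0.31 and 0.17). elo-7 shares 64 bases of exon with F56H11.2 on the opposite strand.

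elo-4, on chromosome III (9332269 to 9334274, minus strand), was the only member whose groups overlapped in CPM after TMM. It had 4 counts in L4 replicate 1 and 193 in L4 replicate 2, or 0.940 and 12.8 CPM, and 0.996, 2.03 and 1.07 CPM at Day 6. L4 replicate 1 was therefore the lowest of the 5 libraries and L4 replicate 2 the highest. The log2 fold change was -2.36 with all libraries (adjusted p = 0.11, edgeR) and -3.14 without L4 replicate 1. Without L4 replicate 2 it was 0.54, in the opposite direction. In that fit the median of all tested genes was 1.05, above the value of elo-4. It shares 120 bases of exon with ufc-1 and C40H1.10 on the opposite strand.

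After TMM, the L4 libraries thus split the 10 genes into 2 sets, and where the dividing line lay depended on the scaling. elo-1, let-767, elo-2 and elo-3 were higher in L4 replicate 1 than in replicate 2, by 7.23, 5.53, 3.34 and 1.97 times in CPM. The others were higher in L4 replicate 2, from 1.69 times for elo-7, 1.88 for elo-5 and 2.03 for elo-6 to 3.47 for elo-9, 4.47 for elo-8 and 13.6 for elo-4. Exon lengths of the 10 genes spanned 922 to 1565 bases. After each library was corrected for its dependence on exon length, 7 of the 10 fell, against 17.9% of all tested genes, with elo-7 and elo-8 joining the 5 above (adjusted p = 0.0473 and 0.0378, edgeR).

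**Figure D3:**
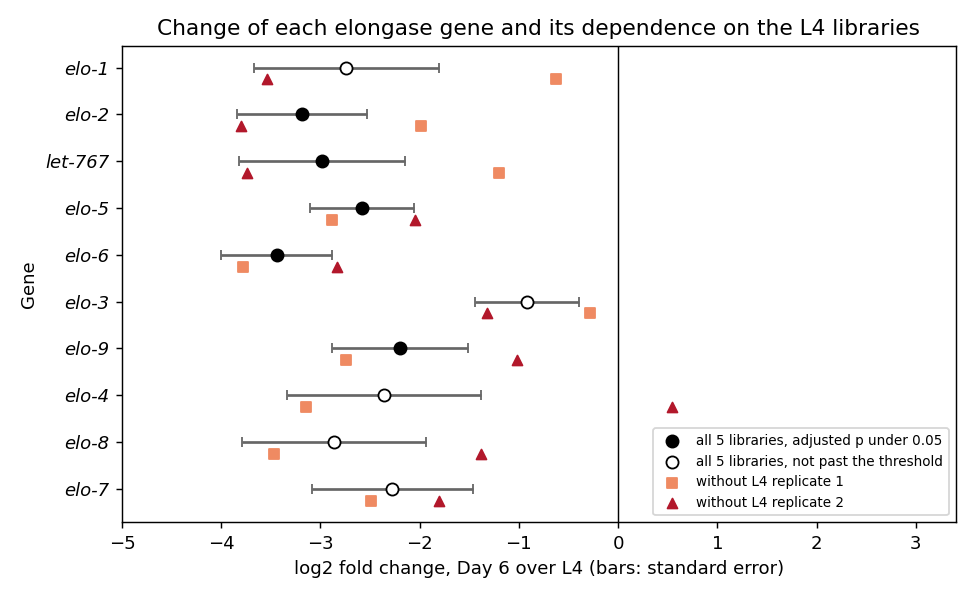
Log2 fold change of Day 6 over L4 for each gene (circles with SEs; filled, adjusted p under 0.05), with the value without L4 replicate 1 (squares) and without L4 replicate 2 (triangles). The change of elo-6 stays between -3.78 and -2.83, that of elo-1 moves from -0.62 to -3.54, and that of elo-4 crosses 0. Without L4 replicate 2 the median of all tested genes was itself 1.05.

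Without L4 replicate 1, 8 of the 10 genes fell (all but elo-1 and elo-3), against 24.1% of all tested genes, and without L4 replicate 2 6 fell (elo-1, elo-2, elo-3, elo-5, elo-6 and let-767), against 24.2%. The genes elo-2, elo-5, elo-6 and let-767 fell in both. Leaving out any 1 of the Day 6 libraries ended all 5 calls by edgeR, with 4 or 5 genes then at an unadjusted p under 0.05. Of all tested genes 2.38%, 4.14% and 2.49% fell without Day 6 replicates 1, 2 and 3. The fitted changes then ranged from -3.53 to -3.37 for elo-6 and from -3.40 to -3.05 for elo-2. According to the methods, libraries with the same replicate number were processed together, but sample titles and library names number the L4 libraries differently. With the replicate as a block by the title numbers, elo-6 alone fell (log2 fold change -3.27, adjusted p = 0.0468, edgeR), against 5.06% of all tested genes. By the library-name numbers none did, against 2.81%, and elo-6 was at -3.44 (adjusted p = 0.10). At an unadjusted p under 0.05, 3 genes were lower in each of these fits. The share of all tested genes at an unadjusted p under 0.05 is not given here for any of these fits. The unadjusted counts therefore cannot be set against a background.

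Per length, elo-1 and let-767 had the highest mean levels at both ages, but in L4 replicate 2 elo-6 was first, at 396 RPKM, above elo-1 (311) and let-767 (230.0). Mean RPKM at L4 was 1280 ± 1370 (SD, n = 2) for elo-1 and 751 ± 736 (SD, n = 2) for let-767, followed by elo-6 (295), elo-2 (263), elo-5 (153) and elo-3 (80.5). Each neighbour in this order overlapped with the next, so the L4 order is not fixed beyond the spread of the libraries, down to the gap between elo-3 and the 4 weak genes. At Day 6 elo-1 was at 192 ± 52.6 RPKM (SD, n = 3), above let-767 at 94.7 ± 25.1 (SD, n = 3) and elo-3 at 42.4 ± 8.87 (SD, n = 3) in every library. elo-2, elo-6 and elo-5 came next at 28.9, 27.2 and 25.6 RPKM, overlapped with each other and elo-2 also with elo-3, and were followed after a gap by elo-9, elo-4, elo-8 and elo-7 at 1.59 to 0.453 RPKM. elo-1 remained among the highest features of each library, with 1.15% to 2.27% of features above it in RPKM, while the share above elo-6 was 5.46% in L4 replicate 1, 1.48% in L4 replicate 2 and between 11.6% and 13.8% at Day 6.

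The make-up of the ELO transcripts also differed between the L4 libraries. Of the summed RPKM of the 9 elo genes, elo-1 made up 73.3% in L4 replicate 1 but 27.8% in replicate 2, and 51.0% to 67.2% at Day 6. elo-5 and elo-6 together made up 9.82% and 53.3% at L4 and 13.01% to 22.2% at Day 6. The Day 6 shares of both lay between those of the L4 libraries, so no shift between the groups can be read from them. The shares of elo-3 did not overlap, with 3.48% and 4.86% at L4 and 11.8% to 14.1% at Day 6. Those of elo-2 were 13.2% and 10.86% at L4 and 9.73%, 10.84% and 6.82% at Day 6, lower by a margin that nearly vanished between L4 replicate 2 and Day 6 replicate 2. The sum itself was 3069 and 1118 RPKM at L4 and 373, 257 and 330.3 RPKM at Day 6.

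**Figure D4:**
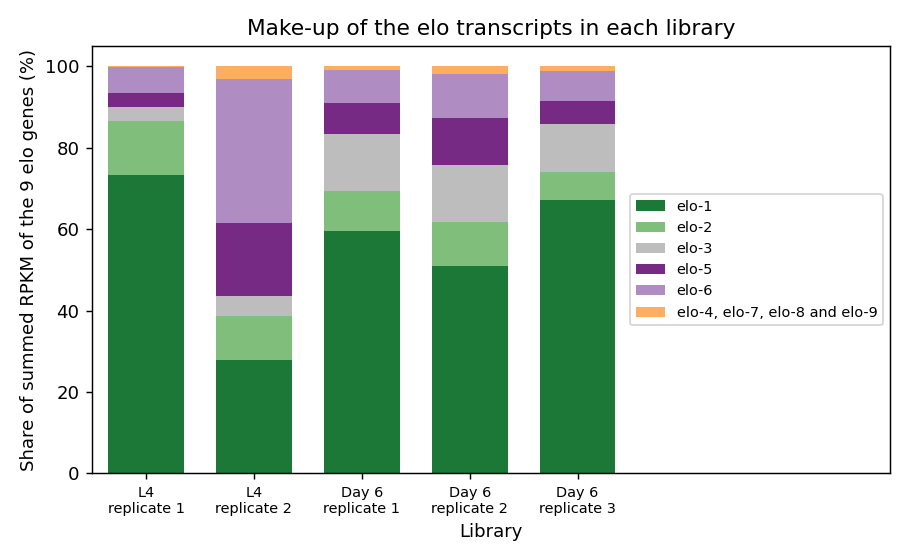
Share of each elo gene in the summed RPKM of the 9 elo genes, in percent, as 1 stacked bar per library. The elo-1 share is 73.3% in L4 replicate 1 and 27.8% in L4 replicate 2, on either side of the Day 6 bars (51.0% to 67.2%), and the elo-3 share is larger in all Day 6 bars than in both L4 bars.

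The other enzymes of the elongation cycle were compared next. art-1 encodes the counterpart of the enoyl reductase of the last step, and was at 670.1 and 176 CPM at L4 and at 94.0, 76.3 and 87.8 CPM at Day 6. art-1 fell by 2.30 (log2, SE 0.69, edgeR adjusted p = 0.0436). Leaving out L4 replicate 1 gave -0.96 (adjusted p = 0.0271). For hpo-8, the counterpart of the dehydratase, levels were 595 and 109 CPM at L4 and 60.3 to 75.8 CPM at Day 6, and the log2 fold change of -2.34 did not pass (edgeR adjusted p = 0.0534). Of the let-767 relatives, stdh-1 was at 0.95 (adjusted p = 0.26) and stdh-2, stdh-3 and stdh-4 had at most 9 counts in any library. Thus 1 of 3 tested genes of this list fell, where 12.5% of all tested genes fell, and the others did not pass. A list of 3 genes is too short to set against that share. With the replicate block by either numbering 0 of 3 passed.

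Of 7 genes that supply or use the branched-chain precursor, bckd-1B, dbt-1 and dld-1, which encode parts of the complex that breaks down branched-chain keto acids, fell, and 4 did not pass (median -2.14), where 12.5% of all tested genes fell. With the block by either numbering 0 of 7 passed. dld-1, whose product also serves other dehydrogenases, was at 1190.1 and 310.3 CPM at L4 and at 97.1, 78.1 and 91.2 CPM at Day 6, and fell by 3.08 (log2, SE 0.74, edgeR adjusted p = 0.0226). For dbt-1 it was -1.83 (SE 0.55, adjusted p = 0.0448). Without L4 replicate 1, dld-1 and dbt-1 were at -1.73 and -1.01. The acyl-CoA synthetase gene acs-1, which acts with elo-5 in branched-chain fatty acid metabolism, was at 40.6 and 161 CPM at L4 and at 54.3 to 73.8 CPM at Day 6, with overlap (adjusted p = 0.45).

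The desaturase genes, which introduce the double bonds into the chains that elongases extend, were also compared. Of 7 genes 1 rose, a share like the 14.3% of all tested genes, the palmitoyl desaturase gene fat-5 (10.3 and 11.6 CPM at L4, and 151, 91.2 and 139.5 CPM at Day 6; log2 fold change 3.53, SE 0.58, edgeR adjusted p = 0.00702), and the other 6 did not pass, with a median of 1.19 over the list. Without L4 replicates 1 and 2 that median was 1.16 and 1.12, against 0.07 and 1.05 over all tested genes. The summed RPKM of the 7 desaturases was 0.705 and 0.785 times that of the 9 elo genes in L4 replicates 1 and 2, and 8.65, 8.50 and 5.64 times at Day 6. This ratio needs no scaling between libraries. It was formed after the values were seen and was not tested. The elo sum was 3069 and 1118 RPKM at L4 and 257 to 373 RPKM at Day 6. The summed CPM of the desaturases overlapped, at 2901 and 1163 at L4 and 2458 to 4263 at Day 6. After TMM the groups were thus apart in the elo sum and overlapped in the desaturase sum. Unlike the ratio, each sum depends on the scaling between libraries, and sums by library totals alone are not given here. How much each sum contributes to the ratio therefore cannot be read from these values. fat-2, which went from 576 and 295 CPM to 757 to 1747 CPM without passing the test (adjusted p = 0.20, edgeR), contributes to the ratio too.

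Among the other lists, 1 of 4 genes of palmitate synthesis rose, acly-2 (ATP citrate lyase), by 2.95 log2 units (SE 0.64, edgeR adjusted p = 0.0166), and it was at 1.42 with the exon length trend removed (adjusted p = 0.20). pod-2 and fasn-1, which encode acetyl-CoA carboxylase and fatty acid synthase, did not pass (adjusted p = 0.999 and 0.62). Of 11 genes of sphingolipid synthesis 1 fell, no larger a share than the 12.5% of all tested genes, namely sptl-2, a subunit gene of serine palmitoyltransferase, at 49.6 and 36.3 CPM at L4 and 5.28, 6.46 and 4.35 CPM at Day 6 (7.98-fold lower, SE of the log2 value 0.49, adjusted p = 0.00693). The median of this list was -0.14 with all libraries. Without L4 replicates 1 and 2 it was -0.40 and 0.84, against 0.07 and 1.05 over all tested genes. Of 12 regulators 1 fell, again against 12.5%, the nuclear hormone receptor gene nhr-68 (-2.67, SE 0.66, adjusted p = 0.0248, and -1.25 without L4 replicate 2). The median of the regulators was 0.56 with all libraries, and 0.35 and 1.28 without L4 replicates 1 and 2. Over all tested genes these medians were 0.08, 0.07 and 1.05. sbp-1, the worm's SREBP, was at 25.6 and 21.6 CPM at L4 and 27.01 to 31.7 CPM at Day 6 (log2 fold change 0.29, adjusted p = 0.65). Of the 7 genes of lipid metabolism named here as risen or fallen with their values, fat-5 alone passed with the block by title numbers (3.41, adjusted p = 0.0269), and none by library-name numbers. With a Day 6 library left out, fat-5 passed without replicate 1 or 2, sptl-2 without replicate 2, and none of the 7 without replicate 3.

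**Figure D5:**
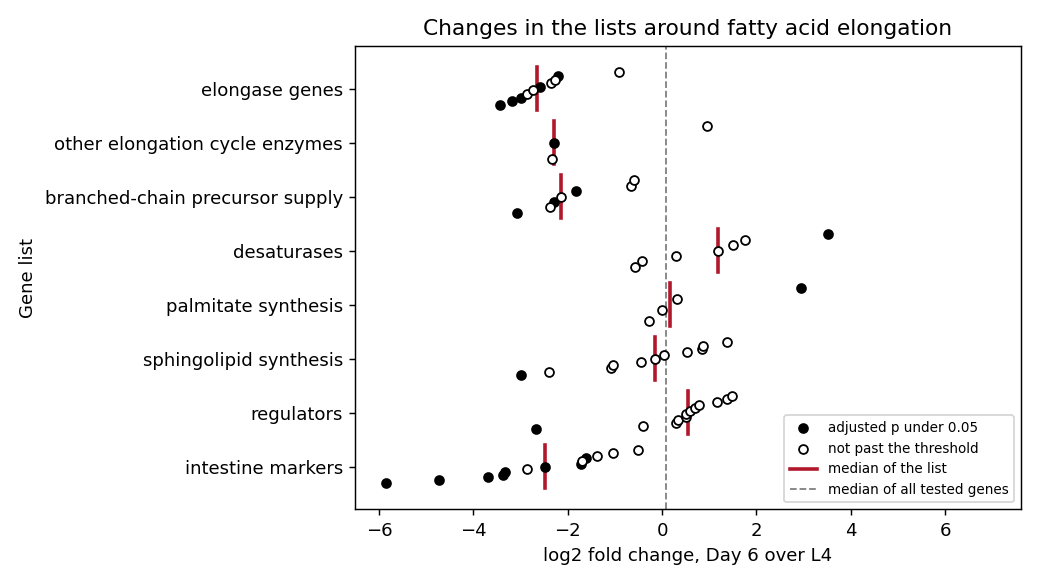
Log2 fold change of Day 6 over L4 for each tested gene of 8 lists (filled, adjusted p under 0.05; red line, median of the list; dashed line, median of all tested genes). The elongase genes lie to the left of 0 with a median of -2.66, near the intestine markers at -2.48, and the desaturases have a median of 1.19.

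All 13 tested markers of the intestine, like the elongase genes, had a negative log2 fold change. Of these 8 fell (adjusted p under 0.05, edgeR), against 12.5% of all tested genes, and 5 did not pass. Their median was -2.48, and -1.57 without L4 replicate 1. With the block by title and library-name numbers 3 and 2 fell, against 5.06% and 2.81% of all tested genes. The summed level of the list was 41530 and 7770 CPM at L4 and 2280 to 3809 CPM at Day 6. ifb-2, an intermediate filament gene of the gut, had a log2 fold change of -3.34 (SE 0.60, adjusted p = 0.00927), and the intestinal GATA factor gene elt-2 was at 5.40 and 25.5 CPM at L4 and 7.74 to 14.4 CPM at Day 6 (adjusted p = 0.61). end-1, a gene of the embryonic gut, had 0 counts in both L4 libraries and 12, 1 and 25 counts in Day 6 replicates 1, 2 and 3. This gene went the other way and was not tested. The summed RPKM of the 10 elongase genes was 0.127 and 0.222 times that of the intestine markers in L4 replicates 1 and 2, and 0.160, 0.183 and 0.185 times at Day 6, so that the groups overlapped. asp-1 and act-5 made up 86.8% to 95.3% of that marker sum, and without them the ratio was 2.70 and 1.69 at L4 and 1.71 to 2.09 at Day 6, again with overlap. In the elongase sum, elo-1 and let-767 had the highest RPKM in every library except L4 replicate 2, where elo-6 was first. The ratios therefore say little about the genes with lower RPKM. They were formed after the values were seen.

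Markers of other tissues were compared with the 14.3% of all tested genes that rose and the 12.5% that fell. Of the epidermis markers 5 of 10 fell (rol-6 and dpy-7 among them), of body wall muscle 3 of 8 fell (lev-11 and tnt-2 among them, with 6 lower and 2 higher without L4 replicate 2), of the germline 8 of 9 rose (such as gld-1 and pgl-1), of oocytes 8 of 8 rose (such as cbd-1 and puf-5), and of the yolk protein genes 1 of 6, vit-5, rose (6 with DESeq2). With DESeq2 2296 of 12758 tested genes rose. With all libraries, none of 10 neuron markers passed with edgeR, with DESeq2 or at an unadjusted p under 0.05. With an L4 library left out this did not hold. The median of the neuron markers was 0.04, and 1.76 without L4 replicate 2, where the median of all tested genes was 1.05. With the block by title numbers 5 epidermis, 0 muscle, 3 germline, 7 oocyte and 0 yolk genes passed, and by library-name numbers 5, 0, 1, 3 and 0. Of all 12758 tested genes 817 rose and 645 (5.06%) fell by title numbers, and 412 rose and 359 (2.81%) fell by library-name numbers. The part of these shifts in the levels of the elongase genes was not tested.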

How the data were processed

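The authors depleted rRNA, made strand-specific cDNA, aligned single reads to WormBase WS254 with TopHat2 and deposited raw counts per gene from featureCounts, before normalization. Tool versions, the strand setting and how multi-mapping reads were handled are not given in the sources used here. Features were named by WormBase ID (17858 of 19176), locus tag or alias, with coordinates and exon lengths taken from the Ensembl gene models for WBcel235.

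The contrast of Day 6 with L4 was fitted in edgeR 4.0.16 with quasi-likelihood F-tests (R 4.3.3), after TMM normalization. The function filterByExpr (minimum count 10, minimum total 15) kept 12758 genes, over which p-values received Benjamini-Hochberg adjustment. CPM and RPKM used TMM library sizes, and ratios were tested in scipy 1.17.1. Alternatives, 16 in all, were other normalizations, DESeq2 1.42.0, voom (limma 3.58.1), other filters, each library left out, the replicate as a block, and removal of the trend with exon length (lowess, span 0.3). Where 1 L4 library remained, its spread was taken to equal that of Day 6.

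The genes, lists and tests were chosen with earlier results of these data known. Besides the 10 genes, up to 2 genes called in each direction with the highest mean CPM were named per list, and hpo-8, stdh genes, bckd-1B, acs-1, fat-2, pod-2, fasn-1, sbp-1, elt-2, end-1 and asp-1 were named after their values were seen. The marker him-3 was not matched to a feature.

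If replicate numbers mark shared preparations, libraries with the same number should deviate together. The correlation of deviations from the group means across genes was 0.34 and 0.27 for the pairs by title numbers, and -0.27 and 0.13 by library-name numbers. With 2 L4 libraries these deviations mirror each other. The paper calls the replicates independent biological replicates.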

Additional observations from a re-analysis of the deposited data

How the results depend on the processing

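Of 158 values of single elongase genes under the alternatives, 106 kept their side of the threshold, 20 passed it newly, 31 no longer passed and 1 reversed, elo-4 without L4 replicate 2 (0.54, against -3.14 without L4 replicate 1). The number of elongase genes called lower was 5, and became 8 with upper-quartile normalization, 9 with DESeq2, 0 with library totals alone (5 at an unadjusted p under 0.05), 8 with the exon length trend removed and L4 replicate 1 left out, 1 and 0 with the replicate block by title and library-name numbers, and 0 to 8 with 1 library left out. Over all genes, 1829 were called higher and 1601 lower. With library totals alone these were 150 and 175, with DESeq2 2296 and 2763, with upper-quartile normalization 1545 and 2054, and with the length trend removed 1749 and 2282. With that trend removed and L4 replicate 1 left out they were 3662 and 3489, with the replicate block 817 and 645 (title numbers) or 412 and 359 (library-name numbers), and with 1 library left out 240 to 4837 and 298 to 3450. The cause of these differences was not tested. For the count at an unadjusted p with library totals alone, the share over all genes is not given here. The scaling moved the median of all genes by -0.22 (RLE), -0.30 (upper quartile) and 0.37 (library totals) on the log2 scale, and all 10 elongase genes stayed negative in each. Without L4 replicate 2 the median of all tested genes was 1.05, above the 0.54 of elo-4 in that fit. The weak genes elo-4, elo-7 and elo-8 rest on 4 to 8 counts in L4 replicate 1, where counting error limits their change. elo-9, which was called lower, rests on 16 counts in that library. By library totals alone elo-9 was at 1.10 CPM in L4 replicate 1, below every Day 6 library (1.78 to 2.91 CPM). The difference of the log2 elo-2 to elo-1 ratio ranged from -1.36 to -0.24 with 1 library left out.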

Other observations

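Genes with levels most like those of elo-2 and elo-5 across the 5 libraries were found by the Euclidean distance between log2 CPM values centred on each gene's mean. For elo-2 these were hpd-1 (distance 0.29), mct-6 (0.35) and phdh-1 (0.35), and let-767 was the closest of the elongase genes at rank 80 (0.75). The levels of hpd-1 were 533 and 198 CPM at L4 and 56.0, 40.0 and 37.9 CPM at Day 6. For elo-5 they were pqn-72 (0.40), pcp-3 (0.49) and acs-20 (0.50), with elo-7 at rank 21 (0.81) and elo-6 at rank 47 (0.96). The levels of acs-20 were 23.3 and 60.8 CPM at L4 and 5.44, 6.03 and 4.41 CPM at Day 6. With 5 libraries in 2 groups many genes share such a profile, and the distances are a description only.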
